A study of Mus musculus with 4 samples.

Results

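The genes described here are the ligands and receptors of the vascular endothelial growth factor (VEGF) and angiopoietin families in cells sorted from mouse adipose tissue. The ligands were Vegfa, Vegfb, Vegfc, Angpt1 and Angpt2, and the receptors were Flt1, Kdr, Nrp1, Nrp2 and Tek. They are 10 of the 19057 genes that the array platform names with 1 symbol, and every probe carrying one of these symbols was taken across 4 libraries. Of the 10 genes, 8 had a probe that passed the detection filter, set at a detection p below 0.01 for 1 or more arrays out of 4. Kdr and Nrp2 had no such probe. The 10 genes had 24 probes with 1 symbol, of which 11 were tested and 13 were not. A further probe carried the symbol of Nrp2 beside another symbol and is not assigned to a gene.

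VEGF ligands are secreted proteins that act mainly on receptor tyrosine kinases of endothelial cells, the cells that line blood vessels. VEGF-A drives sprouting through KDR (VEGFR2), while FLT1 (VEGFR1) binds VEGF-A tightly and can hold it away from KDR, and neuropilins are co-receptors. Angiopoietin-1, made largely by cells around the vessel, activates the endothelial receptor TEK (Tie2) and stabilises vessels, whereas angiopoietin-2, made largely by endothelial cells, often opposes it where vessels are remodelled.

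The study asked how PPARγ, the nuclear receptor that drives fat cell formation, acts in adipose progenitor cells and their vascular niche. RNA of flow-sorted cells was read on Illumina Mouse-6 V2 BeadChip arrays. By title, 2 libraries were null GFP+ (numbers 1 and 3, genotype PPARG null), 1 was het GFP+ (number 2, genotype PPARG het) and 1 was null GFP- (number 3, genotype PPARG null). All came from adipose tissue of mice aged 2 months, with the strain given as Black 6 in the labels and as a mixed background in the methods, and no treatment is named. In the study's AdipoTrak mice, a transactivator expressed from the Pparg locus switches on nuclear GFP, so GFP marks cells that have used that promoter, including fat cells of the lineage, and the controls also carry that allele. The library labelled het GFP+ was taken as the control. The study names both a whole-body (Sox2-Cre) and a lineage-restricted deletion, and the labels do not say which was used or which mice each library came from. P-values therefore rest only on how far the null GFP+ libraries differ from each other, which may be technical. For each gene that spread is drawn mostly from all tested probes together, and less from its own 2 readings. The single library on the other side is assumed to vary as the null GFP+ libraries do.

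The labels and the targeted gene ran in opposite directions. The brightest Pparg probe had an intensity of 3217 and 2479 where the label was null GFP+, 188 where it was het GFP+ and 209 where it was null GFP-. The difference between null GFP+ and het GFP+ was 4.84 on the log2 scale (limma, adjusted p = 0.00926). Another tested Pparg probe ran the same way, at 495 and 363 in null GFP+, 129 in het GFP+ and 101 in null GFP-. By that probe, null GFP+ was at least 5.33-fold above het GFP+ (limma adjusted p = 0.0192). A further Pparg probe was not detected on any array. Fat cell markers were also higher under the null GFP+ label (below), while the paper calls its whole-body and lineage-restricted mutants lipodystrophic. Whether the probes lie in the deleted part of Pparg was not determined, and whether the labels are right was not tested. Every direction is therefore by label only. Median intensities of the 4 arrays lay between 120.2 and 120.3, and an intensity of 154 was taken as the lowest value well above background. Log2 differences and folds were computed after background correction, so a fold can exceed the ratio of the deposited intensities.

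The sequence before the transcription start is shown for Flt1, the receptor that changed, and for Tek, the receptor whose values ran the other way. Both are the 250 bases upstream of the RefSeq start in build GRCm38.p6, on the strand of the gene, with capitals marking GGAA or its reverse complement TTCC, the core bound by ETS factors, which are prominent in endothelial cells. Flt1 lies on the minus strand at chr5:147726012-147726261, and Tek on the plus strand at chr4:94739039-94739288.
Flt1: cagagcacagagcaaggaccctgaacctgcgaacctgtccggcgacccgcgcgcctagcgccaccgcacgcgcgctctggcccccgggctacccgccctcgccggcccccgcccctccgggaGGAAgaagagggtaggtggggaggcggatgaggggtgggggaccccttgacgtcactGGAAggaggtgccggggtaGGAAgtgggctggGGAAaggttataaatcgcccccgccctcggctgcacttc
Tek: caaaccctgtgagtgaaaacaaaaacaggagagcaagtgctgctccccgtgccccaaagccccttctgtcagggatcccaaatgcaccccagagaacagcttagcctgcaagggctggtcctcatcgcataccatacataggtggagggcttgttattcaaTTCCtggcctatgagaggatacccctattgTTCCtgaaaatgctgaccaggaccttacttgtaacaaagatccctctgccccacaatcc
The Flt1 window held 4 matches, all GGAA as printed, and the Tek window held 2, both TTCC as printed. The windows of Nrp1 and Kdr also held 4. Those of Vegfa held 6 and 2, and those of Nrp2, Vegfc and Vegfb held 1 each. At least 1 match, on either strand and with overlaps counted, was found in 93.4% of 32851 promoter windows of this length, and 33.4% held as many as Flt1 and 76.8% as many as Tek. AGGTCA, a site for nuclear receptors, was in neither the Flt1 nor the Tek window on either strand and was in 14.0% of all windows. Promoters were found for 8 of the 10 genes. Angpt1 and Angpt2 were the others.

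Among the ligands, no gene passed the test in either comparison, and the largest difference was that of Angpt2. Against the library labelled het GFP+, 0 of 5 tested ligands were called higher and 0 lower at an adjusted p under 0.05 (limma). Of all 9975 genes tested, 1.31% were called higher and 2.61% lower. Against the library labelled null GFP- the count was again 0 of 5 in each direction, where 1.30% of all genes were called higher and 2.64% lower. At an unadjusted p under 0.05 (limma), 1 of the 5 ligands passed in each comparison, which was Angpt2. That looser cut was passed, in either direction, by 1686 of all 9975 tested genes against het GFP+ and by 1613 against null GFP-. The median difference of the ligands was 0.31 on the log2 scale against het GFP+ and 0.56 against null GFP-, beside 0.05 and 0.02 over all tested genes. Both comparisons use the same null GFP+ libraries.

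Vegfa encodes VEGF-A, the main driver of vessel growth. Its representative probe read 1514 and 1336 under the null GFP+ label, 996 in het GFP+ and 1139 in null GFP-. Both null GFP+ libraries were above both others, and the gap was small. The share of all tested genes with such an order was not counted, here or for the genes below. The difference from het GFP+ was 0.56 on the log2 scale (standard error 0.28, 95% interval -0.16 to 1.28, limma adjusted p = 0.439), and that from null GFP- was 0.35 (adjusted p = 0.692). A second Vegfa probe read 1239, 1493, 980 and 1010 in the same order of libraries. It too was higher in both null GFP+ libraries, with differences of 0.51 (adjusted p = 0.492) and 0.47 (adjusted p = 0.586). The third Vegfa probe was not detected on any array.

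Vegfb, whose product binds FLT1 but not KDR, read 1006 and 1148 in the null GFP+ libraries, 1176 in het GFP+ and 945 in null GFP-. The null GFP+ values lay between the other libraries. Its difference from het GFP+ was -0.14 on the log2 scale (standard error 0.28, limma adjusted p = 0.872). Vegfc, best known as a growth factor of lymphatic vessels, read 630 and 561 in null GFP+, 498 in het GFP+ and 433 in null GFP-. For Vegfc the difference of 0.31 from het GFP+ did not pass (limma adjusted p = 0.689), nor did that of 0.56 from null GFP- (adjusted p = 0.474).

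Angpt1 was dim. Its representative probe read 269 and 159 in null GFP+, 245 in het GFP+ and 144 in null GFP-, and it was detected on 3 of the 4 arrays. The het GFP+ value lay between those of the null GFP+ libraries, which were themselves 1.41 apart on the log2 scale. The difference from het GFP+ was -0.49 (standard error 0.61, limma adjusted p = 0.78), and its sign depended on the library, since null GFP+ 1 alone was above het GFP+ and null GFP+ 3 alone was below it. Angpt1 was not well above background in null GFP-, where null GFP+ was at least 1.75-fold higher (adjusted p = 0.534). The bound uses the lowest intensity well above background for the dim library. It rests on null GFP+ 1, which alone was 3.44-fold above the measured null GFP- value, while null GFP+ 3 alone was 1.29-fold above it. The other 2 Angpt1 probes were not detected.

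Angpt2 read 962 and 2431 in the null GFP+ libraries, 387 in het GFP+ and 380 in null GFP-. Both null GFP+ libraries were above the others, but they differed 2.69-fold from each other, and only 1.06% of tested genes differed as much between these 2 libraries. The difference from het GFP+ was 2.27 on the log2 scale (standard error 0.61, 95% interval 0.70 to 3.85), with an unadjusted p = 0.0138 and an adjusted p = 0.168 from limma. Against null GFP- it was 2.31 (adjusted p = 0.155). By single libraries, null GFP+ 1 was 2.95-fold and null GFP+ 3 was 7.93-fold above het GFP+. The library that was higher for Angpt2 was also higher for fat cell markers, whose 7 tested genes summed to a background-corrected intensity of 6173 in null GFP+ 1, 13952 in null GFP+ 3, 232 in het GFP+ and 162 in null GFP-. All 7 fat cell markers were higher in null GFP+ 3 than in null GFP+ 1, as were 10 of 12 mural markers and 12 of 24 endothelial markers. The same held for 8 of 11 progenitor and stromal markers and 5 of 5 skeletal muscle markers. It held for 4 of 11 mast cell and neutrophil, 0 of 9 macrophage and 0 of 4 lymphatic endothelial markers. Their part in the Angpt2 result was not tested.

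**Figure D1:**
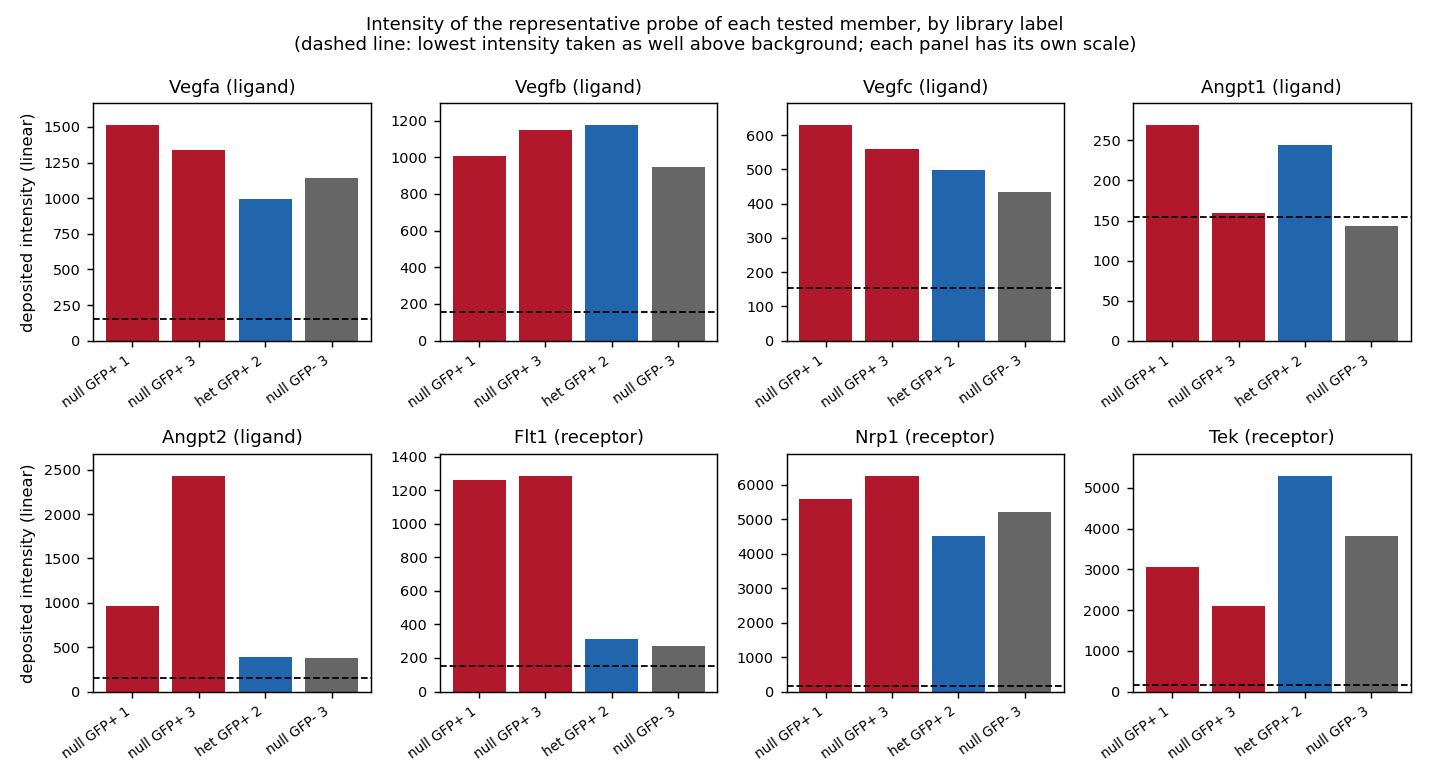
Deposited intensity (linear axis from 0, a scale of its own in each panel) of the representative probe of each of the 8 tested genes in each library, with the dashed line at 154, the lowest value well above background. Flt1 stood at 1262 and 1285 in the libraries labelled null GFP+ against 312 and 274, Angpt2 differed between the null GFP+ libraries (962 and 2431), and Tek was lowest in them.

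Among the receptors, Flt1 was higher in the libraries labelled null GFP+ in both comparisons, and it was the only one of the 8 tested genes to pass. In each comparison 1 of 3 tested receptors was called higher and 0 lower. Over all tested genes, 1.31% were called higher against het GFP+ and 1.30% against null GFP-. The median difference of the receptors was 0.40 against het GFP+ and 0.18 against null GFP-, and Tek had a negative difference in both. At an unadjusted p under 0.05 (limma) the receptors numbered 2 of 3 against het GFP+ (Flt1 and Tek) and 1 of 3 against null GFP- (Flt1). Among all 9975 tested genes, 1686 passed this unadjusted cut against het GFP+ and 1613 against null GFP-, in either direction. With 5 ligands and 3 receptors tested, no difference between the roles was tested.

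Flt1 read 1262 and 1285 in the null GFP+ libraries, 312 in het GFP+ and 274 in null GFP-. The null GFP+ libraries were close to each other and clearly above both others. Flt1 was 5.39-fold higher than in het GFP+ (log2 difference 2.43, standard error 0.27, 95% interval 1.74 to 3.13, limma adjusted p = 0.0192). Against null GFP- it was 6.51-fold higher (log2 difference 2.70, standard error 0.27, 95% interval 2.01 to 3.40, adjusted p = 0.0177). Without a filter for dim probes the limma p-values after adjustment were 0.0565 and 0.0621, so the call was lost in both comparisons with the difference unchanged. A second Flt1 probe was not detected on any array, and whether either probe reads the membrane-bound or the soluble form of FLT1 was not determined.

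The tested genes whose pattern over the 4 libraries was most like that of Flt1, by Euclidean distance of centred log2 values, were Palmd (0.178), Msc (0.208) and Cdh5 (0.217). Cdh5, which encodes VE-cadherin of endothelial junctions, read 650 and 762 in null GFP+, 194 in het GFP+ and 180 in null GFP-. Palmd encodes palmdelphin, a cytoplasmic protein, and read 459 and 426 against 160 and 141. Msc encodes musculin, a transcription factor first described in muscle precursors and B cells, and read 1086 and 1115 against 267 and 222. All 3 were high in the same libraries as Flt1, which follows from choosing them by this distance and is no separate result.

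Kdr, the main signalling receptor for VEGF-A, was not detected on any array. Its 2 probes read between 104.7 and 140.6 over the 4 libraries, all under 154, so no fold is given. Nrp2, the neuropilin of lymphatic and venous endothelium, was likewise undetected with all 6 of its single-symbol probes, which read between 90.5 and 148. Values under that line are only a bound, so neither receptor can be called absent from these cells.

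Nrp1, a co-receptor for VEGF-A and for class 3 semaphorins that stromal cells also carry, read 5579 and 6258 in the null GFP+ libraries, 4500 in het GFP+ and 5222 in null GFP-. The null GFP+ libraries were highest by a small margin. The difference from het GFP+ was 0.40 on the log2 scale (standard error 0.28, limma adjusted p = 0.578), and that from null GFP- was 0.18 (adjusted p = 0.86). The other 2 Nrp1 probes also had small differences from het GFP+, 0.34 (adjusted p = 0.651) and 0.19 (adjusted p = 0.817).

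Tek, the receptor of the angiopoietins, read 3061 and 2097 in the null GFP+ libraries, 5293 in het GFP+ and 3815 in null GFP-. Both null GFP+ libraries were below both others. The difference from het GFP+ was -1.09 on the log2 scale (standard error 0.35, 95% interval -1.98 to -0.20), with an unadjusted p = 0.0255 and an adjusted p = 0.231 from limma. Against null GFP- it was -0.61 (adjusted p = 0.538). Tek is carried by endothelial cells and by some macrophages, and macrophage markers were also lower in null GFP+. Of 9 tested macrophage markers, 6 were called lower against het GFP+, beside 2.61% of all tested genes. The summed background-corrected intensity of these 9 was 3391 and 1152 in null GFP+, 18061 in het GFP+ and 11621 in null GFP-. Also called lower were 2 of 4 lymphatic endothelial and 11 of 11 mast cell and neutrophil markers, while 11 of 24 endothelial markers were called higher. The part of any of these lists in the Tek values was not tested.

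**Figure D2:**
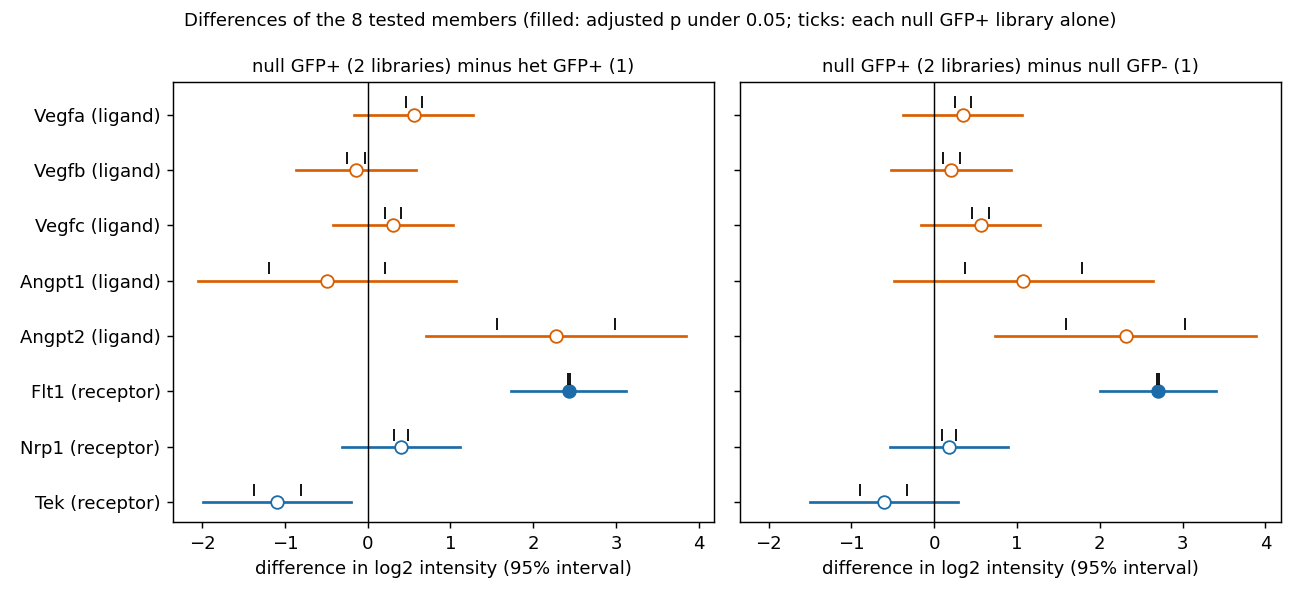
Differences in log2 intensity of the 8 tested genes for null GFP+ against het GFP+ (left) or null GFP- (right), by label, with 95% intervals from limma, filled where the adjusted p is under 0.05 and with ticks for each null GFP+ library alone. Flt1 alone was filled, at 2.43 and 2.70. Angpt2 lay nearly as far right (2.27 and 2.31) with a wider interval, and Tek lay left of 0.

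The het GFP+ and null GFP- libraries gave similar values for most of these genes. With 1 library on each side there was no test. Angpt1 was the only gene of the 8 more than 2-fold apart, at least 2.46-fold higher in het GFP+, with the null GFP- value near background. Over all tested genes, 1.26% were more than 2-fold higher and 1.78% more than 2-fold lower in het GFP+. The other differences were 0.48 for Tek, 0.35 for Vegfb, 0.27 for Flt1, 0.25 for Vegfc, 0.04 for Angpt2, -0.21 for Vegfa and -0.22 for Nrp1 on the log2 scale.

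Further VEGF and Tie family genes moved in both directions. Of 5 tested, 1 was called lower and 0 higher against het GFP+, and 1 higher and 0 lower against null GFP-. Over all tested genes, 2.61% were called lower against het GFP+ and 1.30% higher against null GFP-. The gene that fell was Angpt4, a Tie2 ligand, which read 136 and 151 in null GFP+, 298 in het GFP+ and 237 in null GFP-. It was at least 3.32-fold lower than in het GFP+ (limma adjusted p = 0.0429). Ptprb, the endothelial phosphatase VE-PTP that acts on Tie2, read 530 and 647 against 237 in het GFP+ and 194 in null GFP-. It was higher by 2.28 on the log2 scale than in null GFP- (adjusted p = 0.0299), while the difference of 1.76 from het GFP+ did not pass (adjusted p = 0.0544). Tie1, the endothelial partner of Tie2, read 210 and 244 against 135 and 152, with null GFP+ at least 2.16-fold above het GFP+ (adjusted p = 0.0677). Vegfd, a lymphatic growth factor that read 4350 and 3105 in null GFP+, 2689 in het GFP+ and 2800 in null GFP-, did not pass (adjusted p = 0.592). Pgf, a ligand of FLT1, read 160 and 159 against 215 and 205 and did not pass either (adjusted p = 0.223), and Flt4, the receptor for VEGF-C, was not tested.

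Most genes downstream of these receptors were not called. Beside 2.61% and 2.64% of all tested genes called lower, 1 of 22 tested signalling genes was called lower in each comparison and 0 higher. It was Plcg2, a phospholipase used mainly by blood cells, which read 145 and 148 in null GFP+, 291 in het GFP+ and 481 in null GFP- and was at least 3.21-fold lower than in het GFP+ (limma adjusted p = 0.0359). Of 17 tested endothelial genes known to respond to VEGF-A, 2 were called higher against het GFP+, 1 against null GFP- and 0 lower in either. Over all tested genes, 1.31% and 1.30% were called higher. Egr3, an immediate early transcription factor, read 850 and 897 against 251 in het GFP+ and 410 in null GFP-, with a difference of 2.30 from het GFP+ (adjusted p = 0.0225) and of 1.30 from null GFP- (adjusted p = 0.0903). Ets1, an ETS transcription factor of endothelial and lymphoid cells, read 1246 and 1190 against 414 and 446 and was higher in both comparisons (1.81, adjusted p = 0.0395, and 1.67, adjusted p = 0.0482). The median difference of that list was 0.15 against het GFP+.

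Among 9 tested class 3 semaphorins and plexins, the ligands and receptors that share neuropilins with VEGF, 1 was called lower in each comparison and 0 higher. This was Sema3b, at 559 and 431 in null GFP+, 1722 in het GFP+ and 1998 in null GFP-. Sema3b fell by 2.04 on the log2 scale against het GFP+ (limma adjusted p = 0.0453). Over all tested genes, 2.61% were called lower against het GFP+ and 2.64% against null GFP-. Of 20 tested genes of the hypoxia response, which induces Vegfa, 0 were called in either comparison. The 2 brightest were Ldha, a glycolytic enzyme (0.45, adjusted p = 0.525), and P4ha2, a collagen prolyl hydroxylase (-0.31, adjusted p = 0.671).

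Markers of several cell types also differed between these libraries. Beside the marker counts here and below, 1.31% of all tested genes were called higher and 2.61% lower against het GFP+. Against null GFP- these shares were 1.30% and 2.64%. Of the endothelial markers, 11 of 24 tested were called higher in null GFP+ and 0 lower against het GFP+ (median 1.59), and 15 of 24 higher and 0 lower against null GFP- (median 2.30). Their summed background-corrected intensity was 30696 and 26802 in null GFP+, 18839 in het GFP+ and 14146 in null GFP-. Ramp2, which encodes a receptor-modifying protein, made up much of these sums and read 13025 and 10546 against 13556 and 11079. Without it the sums were 17779 and 16365 in null GFP+, 5392 in het GFP+ and 3176 in null GFP-. Against het GFP+, 4 of the 24 had a negative difference without passing, namely Ramp2 (-0.21), Eng (-0.50), Fli1 (-0.71) and Tal1 (-1.17). Gpihbp1, which anchors lipoprotein lipase in capillaries, read 785 and 831 against 141 and 133 and was at least 11.6-fold higher than in het GFP+ (limma adjusted p = 0.00952). Robo4, a guidance receptor of endothelium, differed by 2.94 (adjusted p = 0.0126). The endothelial markers Erg, Clec14a, Ecscr, S1pr1, Myct1 and Flt4 were not tested, and Tie1 and Flt4 stand in both this list and that of further family genes. Flt1 was called higher beside these 11 endothelial markers, while Tek, which endothelial cells also carry, had a negative difference. Fewer cells of a type and less RNA per cell cannot be told apart in these libraries, and the part of endothelial content in the Flt1 result was not tested.

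The other marker lists followed their own directions. Lymphatic endothelial markers had 2 of 4 called lower in each comparison, Lyve1 and Ccl21a, with Lyve1 at least 6.97-fold lower than in het GFP+ (limma adjusted p = 0.0102). Mural markers had 1 of 12 called higher in each comparison (Notch3, at least 6.61-fold against het GFP+, adjusted p = 0.0153), and Higd1b was at least 2.03-fold higher without passing (adjusted p = 0.0651). Fat cell markers had 5 of 7 called higher in each comparison, led by Plin4 and Adipoq, while Retn, Lipe, Fabp4 and Pck1 were not tested. Plin4 was at least 31.3-fold higher than in het GFP+ (limma adjusted p = 0.0132) and Adipoq at least 24.8-fold (adjusted p = 0.0479). Both were detected on 2 arrays and lay under 154 in het GFP+ and null GFP-. They thus entered the test through the libraries where they were high. Progenitor and stromal markers had 1 of 11 called lower in each (Pi16, -1.97, adjusted p = 0.0321), while Dlk1 did not pass (1.52, adjusted p = 0.174). The macrophage markers Folr2 and Cd163 were among those called lower (adjusted p = 0.0102 and 0.00926), and 5 of 9 were lower against null GFP-. All 11 tested mast cell and neutrophil markers were called lower in both comparisons, with sums of 393 and 377 in null GFP+ against 90825 in het GFP+ and 91556 in null GFP-, led by Mcpt4 and Cpa3. Skeletal muscle markers had 4 of 5 called lower against het GFP+, led by Acta1 and Tnnc2, and 0 against null GFP-. Their part in the values of the VEGF and angiopoietin genes was not tested.

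**Figure D3:**
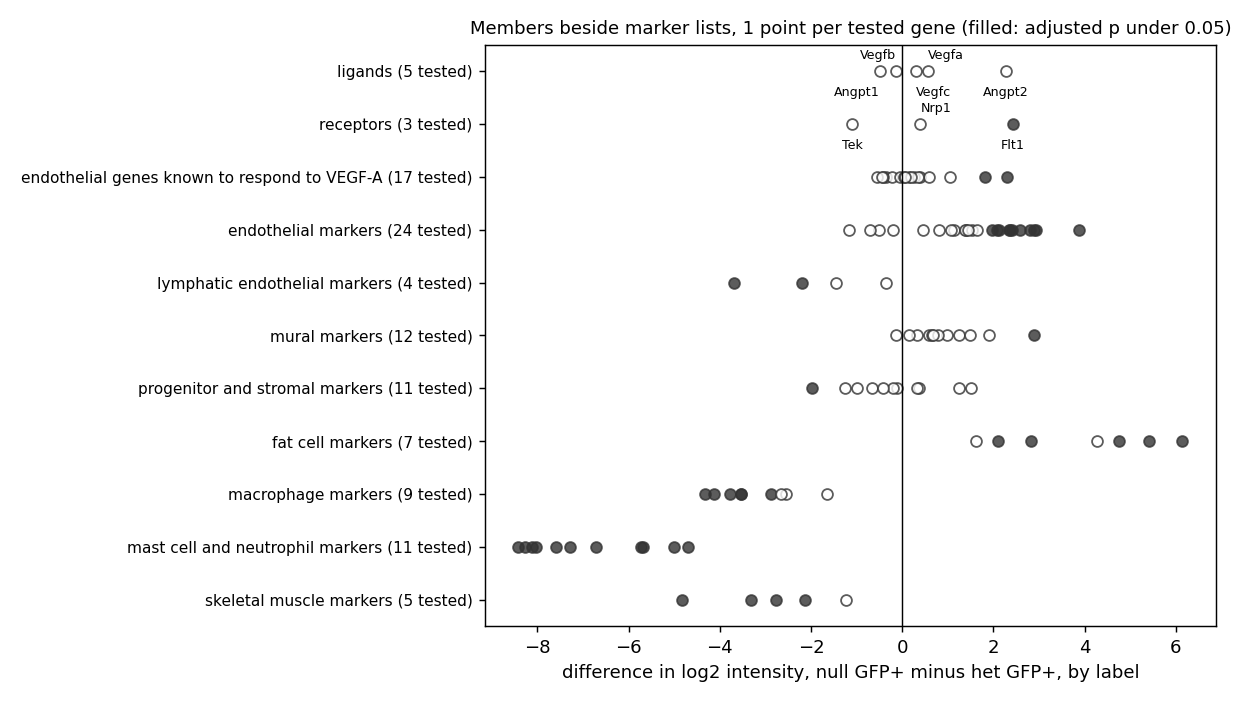
Difference in log2 intensity, null GFP+ minus het GFP+ by label (horizontal axis), 1 point per tested gene in rows for the ligands, the receptors, genes responsive to VEGF-A and the marker lists, filled where the adjusted p from limma is under 0.05. Flt1 (2.43) lay within the range of the endothelial markers called higher, and Tek (-1.09) lay to the left of 0. All 9 macrophage, 4 lymphatic endothelial, 11 mast cell and neutrophil and 5 skeletal muscle markers were negative too.

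The values of Flt1, Angpt2 and Tek kept their direction under every setting tried. For Flt1 the difference from het GFP+ ranged from 2.03 to 2.43 over the reported setting and 8 limma alternatives, and it was called in 7 of the 8. Against null GFP- it ranged from 2.22 to 2.70 and was called in 6 of 7. Angpt2 ranged from 1.98 to 2.27 against het GFP+, with adjusted p from 0.0599 to 0.409, and Tek from -1.09 to -1.06, with adjusted p from 0.0843 to 0.382. Neither was called under any of them.

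**Figure D4:**
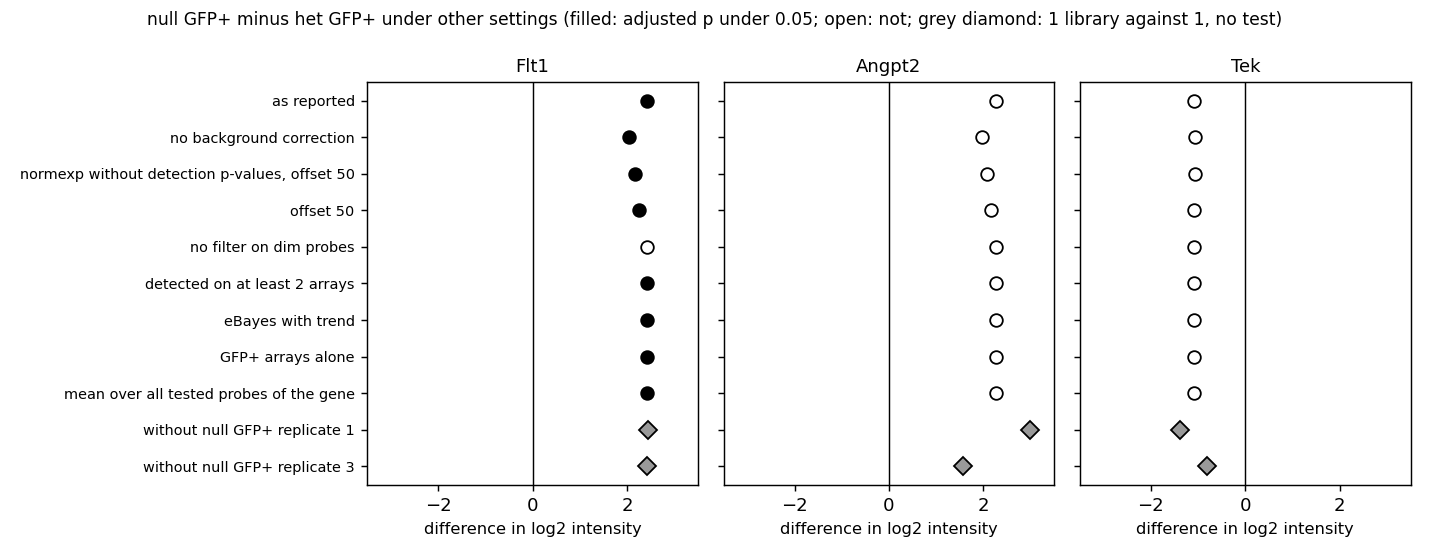
Difference in log2 intensity, null GFP+ minus het GFP+ by label (horizontal axis), for Flt1, Angpt2 and Tek under the reported setting, 8 other settings and each null GFP+ library alone. Flt1 stayed between 2.03 and 2.44 and was open only with no filter on dim probes, while Angpt2 moved between 1.56 and 2.99 with the null GFP+ library left out.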

How the data were processed

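RNA of flow-sorted cells from mouse adipose tissue was hybridized to Illumina Mouse-6 V2 BeadChips by the authors. They deposited probe intensity values on a linear scale for 4 libraries, and a second table with detection p-values that the authors deposited beside 4 columns of signal whose names match no label. Those 4 signal columns were not used, and detection p-values could not be tied to libraries. Detection p-values gave the number of arrays on which a probe was detected. The background fit described below also used them, paired with the intensities by rank. How the authors normalized the deposited values was not found, but sorted values of the arrays differed by at most 0.38% from their mean. The number of arrays limits the precision.

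Background was corrected with normexp fitted to the detection p-values (mean 108, standard deviation 13.6), 16 was added, and log2 values were quantile normalized (limma 3.58.1, R 4.3.3). Of 45281 probes, 17379 passed the filter (detection p below 0.01 for 1 or more arrays) and were tested, and a gene was represented by its brightest tested probe. Groups set by label were compared with lmFit and eBayes over all 4 libraries, two-sided, with Benjamini-Hochberg adjustment over all tested probes. The fit had 1 residual and 4.03 prior degrees of freedom. The fit was also run on simulated data with the same spread in all 4 libraries. That run cannot test whether the single libraries vary as the null GFP+ libraries do. Where all libraries of a group were near background, the fold is a bound ("at least"). Such a gene entered the test through the libraries where it was brighter, so its call is not independent of the filter.

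The genes and lists were chosen with earlier results of these data known. Named were all 10 genes, up to 4 called genes of each pathway list or its 2 brightest, the 2 marker genes with the largest difference from het GFP+, the 3 genes most like a called member, and Pparg. Clone and predicted names were left out. Tie1, Vegfd, Pgf, Ramp2, Eng, Fli1 and Tal1 fall outside that rule and were named after their values were seen. Alternatives covered background correction, offset, filter, variance model, threshold, probe choice and libraries. Promoters came from RefSeq (GRCm38.p6). Figures were drawn with matplotlib 3.10.9.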

Additional observations from a re-analysis of the deposited data

How the results depend on the processing

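The differences of the 8 tested genes kept their direction in the alternatives tried, except that of Angpt1 from het GFP+, which was 0.22 without null GFP+ replicate 3. Of 168 values, 164 were counted as unchanged. Those tested kept their side of the threshold. Those with 1 null GFP+ library left out had no test and had to move by less than the spread of the 2 libraries. Leaving out 1 of 2 libraries always meets that rule, so those values could not have failed. The other 4 values no longer passed, all of Flt1. These were its values when dim probes were kept (0.0565 against het GFP+ and 0.0621 against null GFP-, both adjusted p from limma) and those by the methods' t-test with Benjamini-Hochberg adjusted p-values (0.589 and 0.602). At the study's own threshold, over 2-fold at an unadjusted p under 0.05, Flt1 passed by the methods' t-test in both comparisons. With null GFP+ replicate 1 or 3 left out, each difference is 1 library against 1 with no test, and no count of calls could be made. Over all genes against het GFP+, the counts of 131 higher and 260 lower became 235 higher with no background correction, 248 higher with normexp at an offset of 50 that ignores detection p-values, 238 higher with a trend in the variance, 15 higher and 39 lower with no filter on dim probes, and 517 higher and 630 lower by limma at over 2-fold and unadjusted p under 0.05. Against null GFP-, 130 higher and 263 lower became 204 higher with no background correction, 231 higher and 402 lower with that same normexp setting, 227 higher with a trend, 489 higher and 709 lower by limma at over 2-fold and unadjusted p, and 0 higher and 0 lower with no filter. In that last setting limma tested 19057 genes, 2625 of them had an unadjusted p under 0.05, and the lowest adjusted p was 0.0621. Between het GFP+ and null GFP-, 47 genes were over 2-fold higher and 48 lower with no background correction, in place of 126 and 178. The cause of these shifts was not tested. No paired analysis was possible because the groups share fewer than 2 replicate numbers. With 1 het GFP+ and 1 null GFP- library, the spread of either could not be measured, and signals near background limit Angpt1, Kdr and Nrp2.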
